A study of Homo sapiens with 8 samples.

Results

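Chromosome 6 was examined as a row of open chromatin regions running from the end of the short arm (6p) to the end of the long arm (6q). Chromatin accessibility had been profiled by ATAC-seq, in which the Tn5 transposase cuts accessible DNA, in stable lines of HEK293T, a human embryonic kidney line. Each of the 4 lines had 2 libraries. They carried a construct of EZH2 WT, of the gain-of-function (GOF) mutants EZH2 Y641F and EZH2 A677G, or of EZH2 H689A/F667I, which the study treats as loss-of-function (LOF). All constructs, WT included, were introduced by lentivirus and selected with blasticidin to obtain monoclonal populations, so each line stands for 1 selected population and a difference between lines cannot be told apart from a difference between selected populations. Overlapping peaks of the 8 deposited lists were merged, regions with a peak in at least 2 lists were kept, and the 25 to 29 Mb interval that holds the main histone gene cluster was set aside. This left 4067 of 61878 regions (6.57%), of which 1567 lay on 6p and 2500 on 6q. A further 219 regions fell in the interval set aside. The chromosome was selected on its share of all peaks, which was higher in the Y641F lists, so that share and everything computed from the same Y641F and WT peaks is given as a description. The permutation tests that include Y641F use these peaks as well and are no independent support.

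EZH2 is the catalytic subunit of the Polycomb complex PRC2, whose mark on histone H3 keeps developmental genes silent. ATAC-seq peaks mark nucleosome-poor DNA at promoters and at distal elements such as enhancers. The short arm of chromosome 6 carries the major histocompatibility complex (MHC), a dense block of immune genes, whereas much of the long arm is gene-poor and holds long neuronal and adhesion genes such as GRIK2, PTPRK and ADGRB3.

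The sequences that stand for the groups described further on are shown as 200-base windows of GRCh38, with matches to 6 motifs in capitals. The motifs, searched on both strands, were the GC box (GGGCGG), the CCAAT box (CCAAT), the AP-1 site (TGACTCA), the CRE (TGACGTCA), the E-box (CACGTG) and the GATA site (AGATAA). The first 3 windows are the centres of the leading regions that were open in both Y641F libraries and in neither WT library. They lie in introns of GRIK2 (chr6:101086538-101086737), PTPRK (chr6:128352549-128352748) and ADGRB3 (chr6:68690174-68690373), all on 6q, and are given on the plus strand.
GRIK2, gained in Y641F: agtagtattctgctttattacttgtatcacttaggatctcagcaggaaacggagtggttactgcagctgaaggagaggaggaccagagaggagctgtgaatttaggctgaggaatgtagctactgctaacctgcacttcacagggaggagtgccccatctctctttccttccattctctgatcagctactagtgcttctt
PTPRK, gained in Y641F: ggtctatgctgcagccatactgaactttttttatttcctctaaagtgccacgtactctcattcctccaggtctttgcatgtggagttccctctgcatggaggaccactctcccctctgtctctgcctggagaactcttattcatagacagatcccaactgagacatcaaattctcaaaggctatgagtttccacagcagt
ADGRB3, gained in Y641F: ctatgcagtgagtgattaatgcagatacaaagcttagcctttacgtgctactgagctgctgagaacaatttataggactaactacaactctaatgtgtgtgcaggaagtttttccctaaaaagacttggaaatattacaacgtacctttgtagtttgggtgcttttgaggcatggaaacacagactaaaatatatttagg
The other windows precede RefSeq start sites and overlap no annotated exon. The VIP promoter (chr6:152750597-152750796, plus strand) and the PKHD1 promoter (chr6:52087614-52087813, minus strand) closed in both GOF lines. The SLC2A12 promoter (chr6:134052625-134052824, minus strand) was open in all 8 libraries and lies in the 6q bin with the largest excess of peak share in Y641F over WT.
VIP promoter: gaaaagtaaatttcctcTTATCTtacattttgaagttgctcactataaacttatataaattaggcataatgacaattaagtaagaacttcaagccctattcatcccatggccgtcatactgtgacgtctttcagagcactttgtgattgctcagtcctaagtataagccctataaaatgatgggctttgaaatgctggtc
PKHD1 promoter: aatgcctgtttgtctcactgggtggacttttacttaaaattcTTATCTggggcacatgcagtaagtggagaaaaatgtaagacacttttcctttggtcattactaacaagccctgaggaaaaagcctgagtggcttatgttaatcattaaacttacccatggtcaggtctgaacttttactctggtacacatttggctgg
SLC2A12 promoter: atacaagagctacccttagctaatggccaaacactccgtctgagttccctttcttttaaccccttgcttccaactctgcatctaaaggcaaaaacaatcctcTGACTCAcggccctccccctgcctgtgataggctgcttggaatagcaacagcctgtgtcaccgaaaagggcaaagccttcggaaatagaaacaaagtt
None of the 6 motifs was found in the 3 gained windows. The closed VIP and PKHD1 promoters each held 1 GATA site, a motif present in 7.16% of the same windows of 35116 RefSeq promoters, and the SLC2A12 promoter held 1 AP-1 site, present in 3.54%. The VIP window was the poorest in G and C, at 36%.

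The lists give no read depth, so the number of peaks is the only measure of yield. Outside 25 to 29 Mb, chromosome 6 held 4287 and 4072 peaks in WT, 1901 and 2554 in Y641F, 2411 and 2979 in A677G and 3055 and 3162 for H689A/F667I. Every mutant library had fewer than both WT libraries, as it had over all chromosomes (26350 to 48755 peaks against 62514 and 64923). Among the 4067 regions, 1211 were open in all 8 libraries and 880 in the minimum of 2. The 880 had a median fold of 3.27 over local background and a median width of 502 bp. The 3106 regions just outside the threshold, with a peak in 1 library, had a median fold of 3.14 and a width of 314 bp. These widths are those of merged regions, which can grow with the number of libraries that have a peak. Promoters of 6 of 9 kidney and epithelial markers, such as PAX2 and LHX1, were open in all 8 libraries. Of the others, CDH1 was open in 6 libraries, OSR1 in 4 and PAX8 in 2. Promoters of 6 blood markers were open in none. Of 933 protein-coding genes of chromosome 6, 617 were open in all 8 libraries and 224 in none, so 6 of 9 is near that share.

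Chromosome 6 as a whole took 6.95% and 6.86% of all peaks in WT and 7.85% and 7.49% in Y641F. The shares were 6.78% and 6.83% in A677G and 6.81% and 6.90% for H689A/F667I. The Y641F mean exceeded the WT mean by 0.765 percentage points, and most of this excess lay on 6q, which supplied 0.475 points, or 62.0%. The 25 to 29 Mb interval supplied 0.227 points (29.7%), and the remainder of 6p only 0.0634 points (8.28%). In WT, 6q already held most peaks of the chromosome, with a mean of 4.01% of all peaks beside 6.91%. The log2 ratio of the Y641F to the WT mean was 0.161 on 6q and 0.152 on the whole chromosome. It was 0.727 in the 25 to 29 Mb interval and 0.0355 on the remainder of 6p. Relative to its WT share, the interval thus rose most.

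The 6q share was 4.03% and 4.00% in WT and 4.64% and 4.34% in Y641F. In A677G it was 3.76% and 3.85%, and in H689A/F667I 3.88% and 3.96%. Y641F thus lay above WT on 6q in both libraries, and each of the other mutants lay below WT in both, with mean differences of -0.205 and -0.0941 points. With an equal number of peaks per library the differences on 6q were 0.683 points in Y641F, 0.00380 in A677G and 0.0436 for H689A/F667I, so the deficits of the last 2 lines were not kept. The remainder of 6p spanned 2.50% to 2.64% in the 8 libraries. The 25 to 29 Mb interval was higher than WT in both libraries of all 3 mutants, by 0.227 points in Y641F, 0.0710 in A677G and 0.0725 for H689A/F667I.

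**Figure D1:**
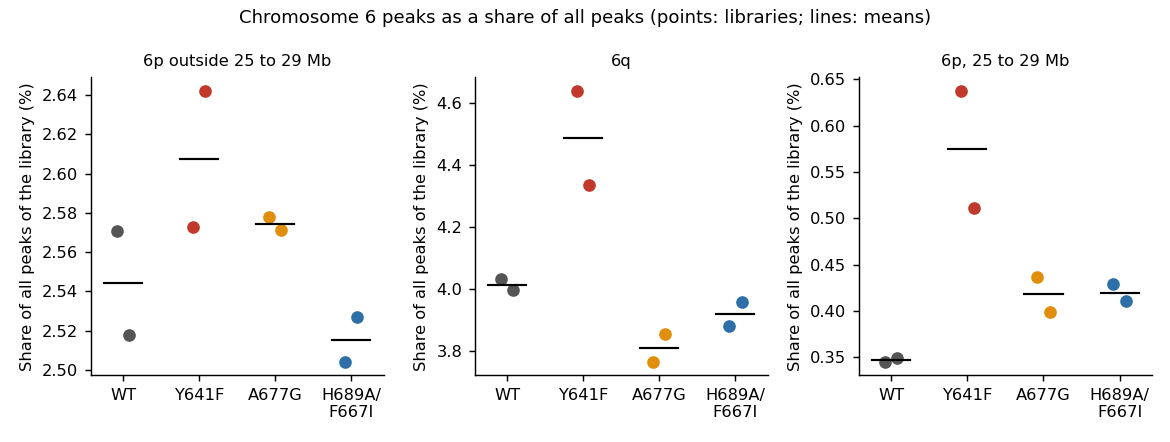
Peaks on 6p outside 25 to 29 Mb, on 6q and in the 25 to 29 Mb interval as a percentage of all peaks of each library (points, 2 per line; lines are means; the axes do not start at 0 and differ between panels). On 6q the Y641F libraries sit at 4.64% and 4.34%, above the other 6, which range from 3.76% to 4.03%.

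The 6p share of chromosome 6 peaks put the arms against each other without the rest of the genome. It was 38.9% and 38.7% in WT, 35.7% and 37.9% in Y641F, 40.6% and 40.0% in A677G and 39.2% and 39.0% for H689A/F667I. Both Y641F libraries were lower than both WT libraries and both A677G libraries were higher, so the GOF lines lay on opposite sides of WT. Chromosome 6 was selected on the same Y641F and WT peaks, so the p-values that include Y641F are no independent evidence. The difference from WT was -2.03 points in Y641F, 1.54 in A677G and 0.296 for H689A/F667I, each with a two-sided exact permutation p of 0.333, the smallest that 2 against 2 libraries allow (adjusted p = 0.364 over 12 tests). The 4 GOF libraries as a group differed from the 4 WT and LOF libraries by -0.394 points (exact permutation p = 0.8). The Y641F difference was -0.372 points with 25 to 29 Mb included, -0.931 without Y641F replicate 1, -3.13 without Y641F replicate 2, -1.24 at a −log10 q of at least 5 and -4.15 with equal peak numbers. That of A677G was 0.242 with equal peak numbers.

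Along the chromosome, the higher Y641F share was spread over most of 6q rather than lodged in a few bins. The chromosome was cut into 35 bins of 5 Mb, and in 21 of them both Y641F libraries had a higher share of all peaks than both WT libraries. Over all chromosomes, 26% of 578 bins did so and 33.2% lay below. On 6q the count was 15 of 23 bins above (65.2%) and 0 below. On 6p it was 6 of 12 above and 4 below. Bins of other chromosomes within the GC range of the 6q bins were above in 24.2% of 488 cases. That range, 34.9% to 47.2%, took in most bins of the genome, so this is no close match for GC. At a −log10 q of at least 5, 42.1% of 19 bins of 6q lay above, beside 34.0% of all bins, and with equal peak numbers 45% of 20, beside 28.3%.

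The longest unbroken run of bins with a positive mean difference in Y641F went from 85 to 160 Mb and held 15 bins, 12 of which had both libraries above both WT libraries. This was the longest run of any chromosome in Y641F, the line on whose peaks chromosome 6 was selected. Chromosome 5 came next with a run of 14 bins, but only 5 of its 36 bins had both Y641F libraries above both WT libraries. The 15 bins of 6q added 0.424 points to the Y641F share. The same bins came to -0.187 points in A677G and -0.0857 points in H689A/F667I. In A677G, 3 of 23 6q bins lay above and 9 below WT (all bins 23.7% and 34.4%), and in H689A/F667I 1 lay above and 7 below (all bins 23.5% and 31.3%).

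Single bins differed in which lines shared the excess. The 30 to 35 Mb bin, which holds the MHC and is the most promoter-rich of the chromosome (39.5% of 266 regions), took 0.427% and 0.437% of peaks in WT, 0.501% and 0.555% in Y641F, 0.516% and 0.492% in A677G and 0.495% and 0.482% for H689A/F667I. All 6 mutant libraries lay above both WT libraries there. The same held in the adjoining bins to 45 Mb, and 25 to 45 Mb was the longest positive run in A677G and in H689A/F667I.

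On 6q the top bins were 130 to 135 Mb (0.0535 points) and 105 to 110 Mb (0.0528 points) in Y641F. At 130 to 135 Mb the share was 0.253% and 0.258% in WT, 0.311% and 0.306% in Y641F, 0.245% and 0.272% in A677G and 0.251% and 0.240% for H689A/F667I, so Y641F was the one line with both libraries above WT. At 105 to 110 Mb it was 0.211% and 0.206% in WT, 0.277% and 0.246% in Y641F, 0.234% and 0.224% in A677G and 0.213% and 0.209% for H689A/F667I. There both GOF lines lay above WT and the LOF line overlapped it.

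The end of 6p lay on the other side of WT. At 5 to 10 Mb the share was 0.191% and 0.168% in WT, 0.137% and 0.145% in Y641F, 0.158% and 0.142% in A677G and 0.146% and 0.148% for H689A/F667I, and all mutant libraries lay below both WT libraries. The first 25 Mb were negative in all 5 bins in each mutant.

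**Figure D2:**
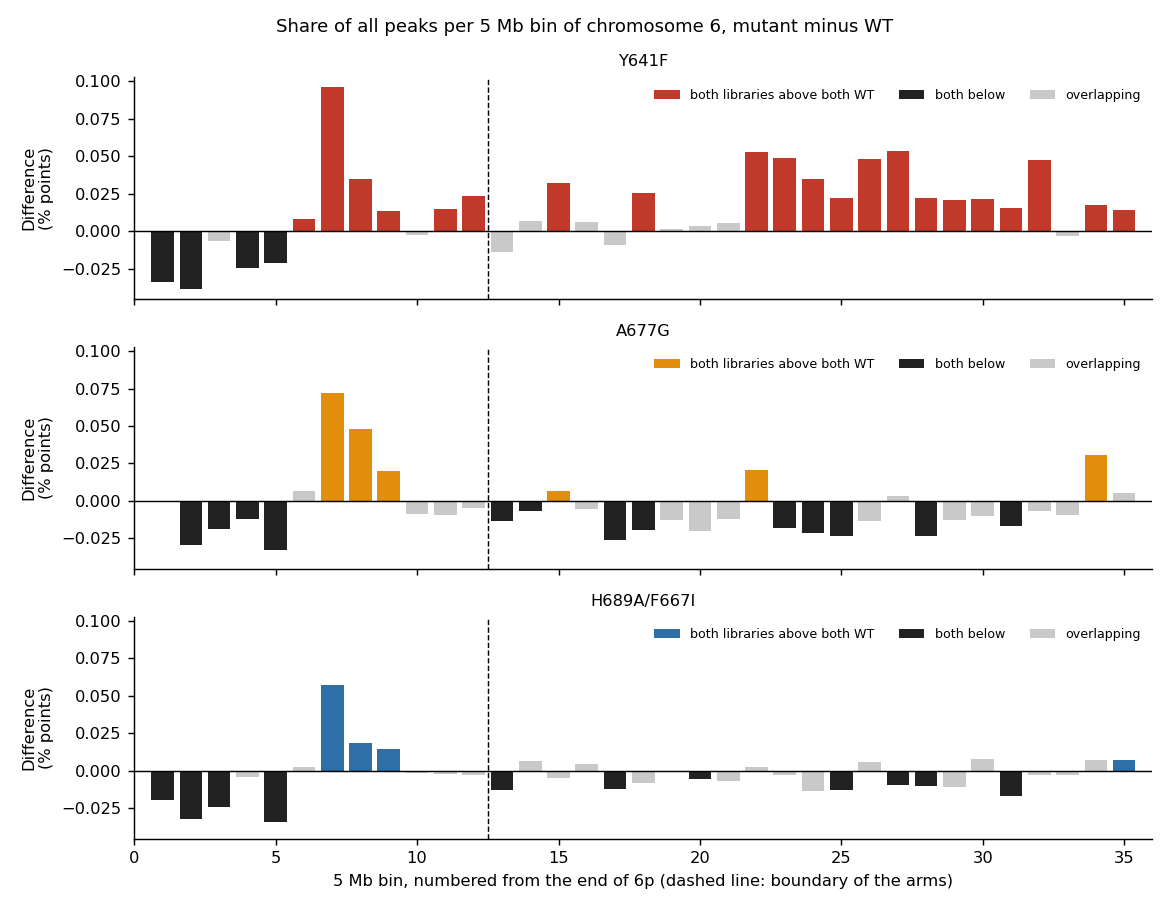
Share of all peaks in each 5 Mb bin of chromosome 6, mutant mean minus WT mean in percentage points, against bin number from the end of 6p; colour marks bins where both mutant libraries lie above both WT libraries, black those where both lie below, grey the rest, and the sixth bin holds only what lies outside 25 to 29 Mb. In Y641F 15 of 23 bins right of the dashed line are coloured, against 3 in A677G and 1 in H689A/F667I.

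The excess of Y641F on 6q was larger away from promoters. Of all promoter peaks of a library, 2.59% and 2.60% lay on 6q in WT and 2.95% and 2.82% in Y641F. Of all intron peaks, 4.73% and 4.69% lay there in WT against 6.88% and 5.71% in Y641F. Of intergenic peaks, 4.50% and 4.44% lay there in WT against 5.61% and 4.98% in Y641F. Y641F exceeded WT in both libraries in each class, with the widest gap in introns (1.59 points).

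A677G had 4.96% and 4.76% of its intron peaks on 6q and H689A/F667I 4.84% and 4.91%. These values also lay above both WT libraries, by 0.146 and 0.161 points on average, while their intergenic shares, from 4.16% to 4.50%, did not exceed the higher WT value of 4.50%. As a log2 ratio to WT, the Y641F share of intron peaks on the whole of chromosome 6 outside 25 to 29 Mb was 0.30, the highest of 23 chromosomes (others -0.58 to 0.18), and 0.42 on 6q alone. The same ratio ranked second for promoter peaks (0.11) and for intergenic peaks (0.16). Chromosome 6 was selected on its Y641F share, so these high ranks are no independent support.

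**Figure D3:**
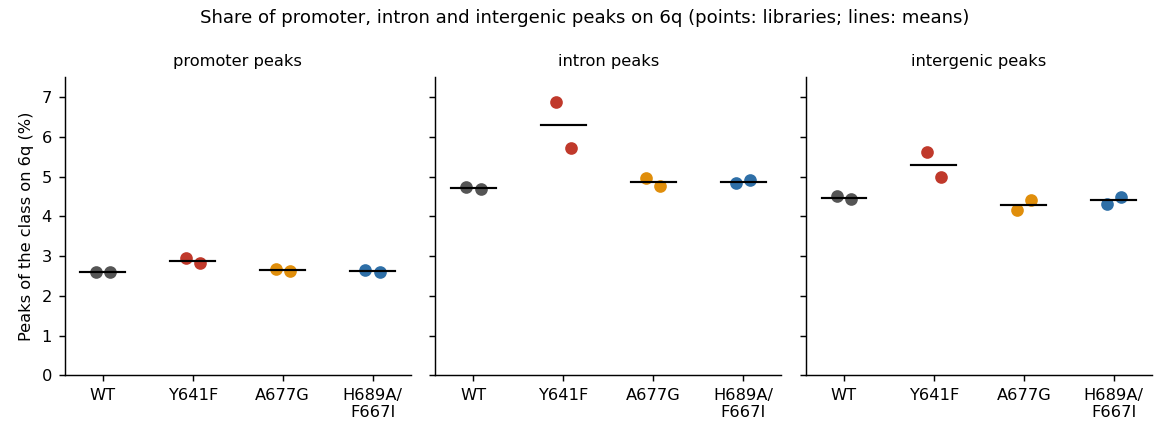
Percentage of the promoter, intron and intergenic peaks of each library that lie on 6q (points, 2 per line; lines are means). The Y641F libraries stand highest in each panel, at 6.88% and 5.71% for intron peaks against 4.69% to 4.96% in the other 6 libraries.

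Promoters made up a larger part of chromosome 6 peaks in every mutant than in WT. The share within 1 kb of a protein-coding start site was 17.5% and 18.2% in WT, 32.8% and 27.1% in Y641F, 28.9% and 24.5% in A677G and 23.6% and 22.4% for H689A/F667I. The GOF libraries all lay above the WT and LOF libraries, with a mean difference of 7.92 points (exact permutation p = 0.0286, the smallest for 4 against 4; adjusted p = 0.171). Lines with fewer peaks on average had higher mean promoter shares, and with an equal number of peaks taken from each library the difference was -0.269 points (exact permutation p = 0.943).

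In the 1211 regions open in all 8 libraries, the median fold was 4.41 and 4.38 in WT, 3.87 and 4.05 in Y641F, 4.17 and 4.18 in A677G and 4.24 and 4.27 for H689A/F667I. The GOF libraries were all lower than the WT and LOF libraries, by 0.259 on average (exact permutation p = 0.0286, adjusted p = 0.171). At a −log10 q of at least 5 this difference was -0.0975 (exact permutation p = 0.314), and the medians of Y641F, A677G and H689A/F667I differed from WT by -0.195, 0.00309 and 0.00327. Without WT replicate 1 the exact permutation p was 0.0857, and without WT replicate 2 it was 0.0571. The fold did not single out chromosome 6. Its median log2 difference from WT in Y641F was -0.12 on 6p, -0.13 on 6q and -0.12 on the other chromosomes. The log2 of −log10 p, which also grows with peak width and depth, was lower than WT by less on 6q (-0.48) than on other chromosomes (-0.55) in Y641F, and by more on 6q in A677G (-0.40 against -0.37) and H689A/F667I (-0.32 against -0.29).

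Loss was counted among the 3098 regions open in both WT libraries, as absence of a peak in both libraries of a mutant. Y641F lost 1050 regions (33.9%), A677G 708 (22.9%) and H689A/F667I 465 (15.0%). Over all chromosomes 35.3%, 20.8% and 14.2% were lost, so the chromosome as a whole was near the background in each line. At a −log10 q of at least 5 the counts were 469, 327 and 242, and with equal peak numbers 156, 117 and 84. A region without a peak is not a region without signal.

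Set against WT peak size, the arms had different ratios of loss. Regions of the other chromosomes, in 10 strata of WT width times −log10 p, gave an expected number. In Y641F the ratio of observed to expected loss was 0.992 on 6p and 0.884 on 6q, with 614 of 1829 regions lost on 6q (33.6%, 95% Wilson interval 31.4% to 35.8%, counting error only) where 694.7 were expected. Within 85 to 160 Mb it was 0.859, and on the rest of 6q 0.967. A677G had the reverse order, with 0.998 on 6p and 1.11 on 6q, and H689A/F667I had 1.05 and 1.00.

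The lowest ratios in Y641F were at 125 to 130 Mb (0.630, 23.1% of 108 regions lost) and 130 to 135 Mb (0.629, 25.2% of 115 lost). At 125 to 130 Mb the ratio was 1.07 in A677G and 0.532 in H689A/F667I, so a low ratio there was not particular to Y641F. At 130 to 135 Mb it was 0.855 in A677G and 1.15 in H689A/F667I. The highest ratio in Y641F was also on 6q, at 80 to 85 Mb (1.32, 49.0% of 51 lost). On 6p its highest ratio was at 5 to 10 Mb (1.25, 48.8% of 84 lost). At 80 to 85 Mb A677G had 1.47 and H689A/F667I 1.25, and at 5 to 10 Mb they had 1.22 and 1.17. With equal peak numbers in all libraries, the Y641F ratio of the chromosome, 0.926, was 0.996, and that of A677G was 1.30 in place of 1.06.

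**Figure D4:**
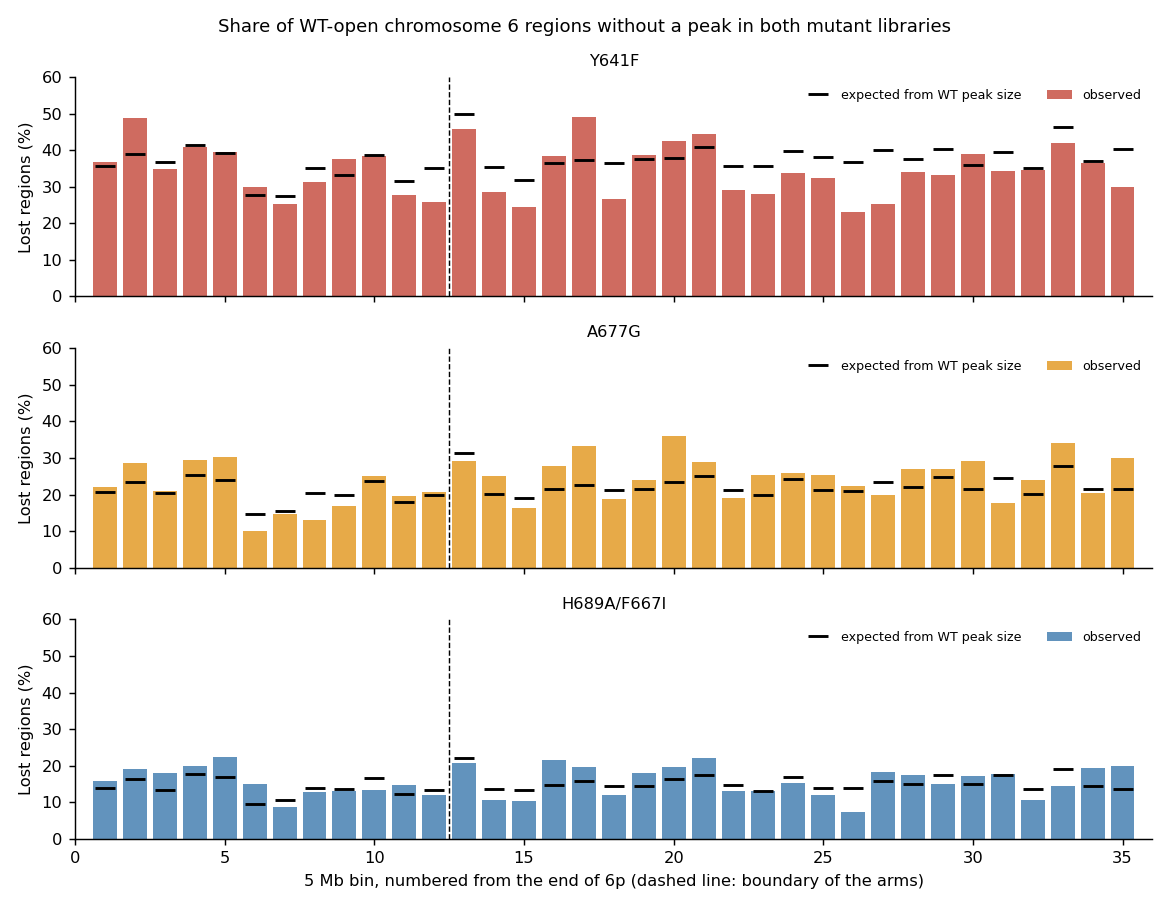
Percentage of regions open in both WT libraries that had no peak in both libraries of each mutant, per 5 Mb bin of chromosome 6 (bars), with the percentage expected from WT peak size (black marks). In Y641F most bars of 85 to 160 Mb (bins 18 to 32) end below their mark, with the widest gaps at bins 26 and 27, where observed loss over expected was 0.630 and 0.629. At bin 26 it was 0.532 in H689A/F667I.

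Lost regions had a smaller median width, a lower median GC and fewer promoters than retained ones in each line. Median width was 607 bp for the 1050 regions lost in Y641F and 1170 bp for the 1339 retained. A retained region also spans the peaks of the mutant libraries, so part of this gap can arise from the merging. Only 54 of the 1050 were promoters, and 403 lay in introns and 513 between genes. The median GC of the central 200 bases was 45.5% in lost and 56.5% in retained regions, beside 49% over all chromosome 6 regions and 52% over all chromosomes.

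On 6q, the GC box was in 3.75% of regions lost in Y641F and in 27.9% of those retained, and the AP-1 site in 8.79% and 3.14%. Over all 61878 regions these motifs were in 19.2% and 4.86%. The CCAAT box was in 23.9% and 21.9%. The GATA site was in 13.7% and 9.42%, and it was likewise more frequent in lost than in retained 6q regions of A677G (15.7% and 11.8%) and H689A/F667I (15.4% and 11.2%).

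Fewer regions were gained than lost. Of 225 regions closed in both WT libraries, Y641F opened 34 in both libraries (15.1%; all chromosomes 8.77%), A677G 27 (12%; 13%) and H689A/F667I 43 (19.1%; 22.4%). A region closed in both WT libraries was kept only if at least 2 mutant libraries had a peak. The gained regions of a line passed this filter through that line's own libraries, so these percentages are not rates of opening. In Y641F 28 of the 34 lay on 6q (17.4% of the 161 kept regions closed in WT there) and 6 on 6p (9.38% of 64). By class, 17 were in introns, 13 between genes, 2 in exons and 2 at promoters. Of the 34, 27 had no peak in either A677G library and 28 none in either H689A/F667I library. At a −log10 q of at least 5 Y641F had 1 gained region, and none of the 8 named for it was called. With an equal number of peaks per library 5 of the 8 were called, and gained regions numbered 124 in Y641F, 80 in A677G and 75 for H689A/F667I, beside 156, 117 and 84 lost.

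The leading gained region of Y641F lay in an intron of GRIK2, a kainate receptor subunit, with a fold of 5.55 and 3.85 in Y641F, 3.46 in H689A/F667I replicate 1 and no peak in the other 5 libraries. Regions in 2 introns of PTPRK, a receptor tyrosine phosphatase, had a fold of 3.93 and 4.08, and of 3.34 and 3.74, in Y641F and no peak elsewhere. The ADGRB3 intron, in a gene for an adhesion receptor of synapses, had 4.19 and 3.74 in Y641F but also 3.56 and 3.88 in H689A/F667I. The PTPRK regions thus had peaks in the Y641F libraries alone, and the ADGRB3 region also had them in both LOF libraries.

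A region 43122 bp from DLL1, a Notch ligand gene, had a fold of 3.99 and 3.55 in Y641F and no peak elsewhere. The same held for an intron of AFG1L (4.05 and 3.24) and for a region whose nearest gene, at 608188 bp, was MARCKS (3.68 and 3.26). The leading gained promoter was that of COL21A1, a collagen gene on 6p, with 3.53 and 3.37. In A677G the leading gained regions lay in introns of COL9A1, another collagen gene (4.14 and 3.90, no peak elsewhere), UBE3D and FARS2, and 45774 bp from FAM120B. In H689A/F667I the leading region lay 9960 bp from PPARD, a nuclear receptor gene, with 5.27 and 4.00 and with 3.51 and 3.92 in A677G. A second intron region of GRIK2, at chr6:101352383-101352853, had 4.66 and 3.95 in H689A/F667I and no peak elsewhere.

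Few promoters on chromosome 6 were lost. Of 721 promoter regions open in both WT libraries, Y641F lost 54 (7.49%), A677G 28 (3.88%) and H689A/F667I 23 (3.19%). The share over all chromosomes was 10.8%, 4.34% and 2.88%, respectively. By gene, 693 of 933 protein-coding genes had an open promoter in both WT libraries. Of these, 27 closed in Y641F (3.90%; all genes 6.63%), 10 in A677G (1.44%; 2.08%) and 9 in H689A/F667I (1.30%; 1.44%).

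VIP, which encodes a neuropeptide, had a promoter fold of 4.11 and 4.50 in WT and no peak in any of the 6 mutant libraries. PKHD1, the gene of autosomal recessive polycystic kidney disease, had 4.01 and 4.59 in WT, 4.64 and 3.28 in H689A/F667I and no peak in the 4 GOF libraries. GJA10, a connexin gene, had 4.14 and 4.17 in WT, 4.20 in H689A/F667I replicate 2 and no peak in the GOF libraries. VIP thus closed in all mutants, PKHD1 was open in both LOF libraries, and GJA10 was open in 1 of them. None of the 8 promoter losses named for Y641F was called at a −log10 q of at least 5 or with equal peak numbers.

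Other promoter regions were lost in Y641F but kept in part elsewhere. MTHFD1L, a mitochondrial folate enzyme gene, had 4.39 and 4.04 in WT, 3.57 and 4.09 in A677G and 3.65 in H689A/F667I replicate 1. A region of GRM4, a metabotropic glutamate receptor gene, had 4.07 and 3.90 in WT and was open in both libraries of A677G (3.69 and 3.09) and H689A/F667I (3.92 and 3.83). NCR2, a natural killer receptor gene, had 4.92 and 3.72 in WT and 3.39 in A677G replicate 2 alone. ADGRB3 had 4.92 and 3.73 in WT at 1 promoter region, 4.93 in A677G replicate 1 and 3.63 in H689A/F667I replicate 2, and a region at the RAMACL start site within RPS6KA2 had 4.51 and 4.23 in WT. In Y641F, other start sites of GRM4 kept a peak in replicate 2 alone (3.29), and other start sites of ADGRB3 in both libraries (3.79 and 3.64). Among the leading losses of the other lines, a DST region closed in A677G, ARMC12 closed in H689A/F667I and in Y641F, with a peak in A677G replicate 2 (2.54), and 1 MAP7 start site closed in all 3 mutants.

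The promoters that led the bins with the largest Y641F excess were open in all 8 libraries, with a fold in Y641F below or overlapping that of WT. At 130 to 135 Mb, the shared promoter of ENPP3 and MED23, the latter a Mediator subunit, had 7.28 and 6.91 in WT and 5.97 and 6.71 in Y641F. STX7, an endosomal syntaxin gene, had 6.49 and 6.60 in WT and 5.84 and 6.12 in Y641F. SLC2A12, a glucose transporter gene whose promoter is shown among the sequences, had 4.63 and 5.02 against 4.27 and 4.59, and SLC18B1 had 4.37 and 4.40 against 4.05 and 4.11. Y641F was below WT in both libraries for these 4 promoters. Its fold was lower on the other chromosomes too, with a median log2 difference from WT of -0.12. Regions of this bin open in all 8 libraries differed from that median by -0.003, so the lower fold does not set the bin apart.

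At 105 to 110 Mb, ATG5, an autophagy gene, had 7.04 and 6.38 in WT and 4.90 and 6.13 in Y641F, whereas SNX3, a sorting nexin gene, had 4.91 and 5.15 against 4.93 and 5.62, with 6.42 and 7.17 in A677G. MTRES1 (5.86 and 6.17 against 5.38 and 6.47) and the AK9 and FIG4 promoter (4.94 and 5.10 against 5.00 and 4.77) overlapped WT. In the MHC bin, the same held for PPP1R11 (5.52 and 5.63 in WT, 5.52 and 5.59 in Y641F). HLA-DMB, a peptide-loading gene of MHC class II, had 6.39 and 6.76 in WT, 5.01 and 6.23 in Y641F, 5.43 and 4.51 in A677G and 6.31 and 5.96 for H689A/F667I. It was below both WT libraries in every mutant library. HLA-B, an MHC class I gene, had 6.34 and 5.99 in WT and 6.0 and 5.82 in Y641F.

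In the 6p bins with a lower share in Y641F, some leading promoters had a higher fold. SLC35B3, a nucleotide-sugar transporter gene, had 5.65 and 5.67 in WT and 6.76 and 8.0 in Y641F. PRPF4B, a splicing kinase gene, had 3.45 and 3.23 in WT, 4.66 and 4.89 in Y641F, 4.05 and 4.64 in A677G and 4.24 and 4.44 for H689A/F667I, and WRNIP1 likewise lay above both WT libraries in all 6 mutant libraries. RPP40, BLOC1S5 and FAM50B lay below WT in both Y641F libraries, for example FAM50B with 8.41 and 6.86 in WT and 6.0 and 5.70 in Y641F. EEF1E1 lay above WT in Y641F (6.34 and 5.74 against 5.53 and 5.16), and GMDS overlapped it.

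Gene lists were followed through their promoters, with the highest fold among the regions at a gene's start sites. The background for every list was 617 of 933 protein-coding chromosome 6 genes open in all 8 libraries, and 224 open in none. Of 35 developmental transcription factor genes on the chromosome, a class with many known Polycomb targets, 21 were open in all 8 libraries and 8 in none. FOXC1 (2.04 and 2.05 in WT) and NR2E1 (3.36 and 3.07) closed in Y641F and in H689A/F667I (2 of the 26 open in WT, 7.69%), and no factor closed in A677G. Over all genes 6.63% closed in Y641F, with 2.08% for A677G and 1.44% for H689A/F667I. At these shares few or no closures are the background for lists of this size. The median log2 difference in fold from WT over the 21 was 0.10 in Y641F, 0.10 in A677G and 0.11 for H689A/F667I, where all 617 such chromosome 6 genes had -0.08, -0.03 and -0.02. It was positive for 14 of the 21 in Y641F. The number positive among all 617 was not counted, so such counts, here and for the lists below, have no background.

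FOXF2, a forkhead factor of mesenchyme, had 2.76 and 3.08 in WT, 4.02 and 3.71 in Y641F, 3.70 and 3.72 in A677G and 3.57 and 3.56 for H689A/F667I. TBX18 and ID4, like FOXF2, lay above both WT libraries in all 6 mutant libraries (ID4 3.07 and 3.18 in WT, 3.84 and 3.68 in Y641F). PRDM1, which encodes a transcriptional repressor that drives plasma cell differentiation, was the opposite case, with 5.57 and 6.37 in WT, 3.77 and 4.64 in Y641F, 4.09 and 5.31 in A677G and 5.78 and 5.17 for H689A/F667I. Its GOF libraries were all below WT and the LOF libraries overlapped WT. No test was run on these single promoters.

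Chromatin regulators had medians close to 0. Of 22 on the chromosome outside 25 to 29 Mb, 20 were open in all 8 libraries, none of the 21 open in WT closed in any mutant (all genes 6.63%, 2.08% and 1.44%), and the median log2 difference was 0.01 in Y641F, 0.01 in A677G and -0.01 for H689A/F667I. JARID2, a cofactor of Polycomb repressive complex 2, had 3.82 and 3.39 in WT and 4.14 and 3.85 in Y641F. RING1, a subunit of Polycomb repressive complex 1, had 2.90 and 2.83 in WT and a peak in 1 of the Y641F libraries (2.70). HDAC2, a histone deacetylase gene on 6q, had 3.47 and 3.74 in WT and 3.46 and 3.44 in Y641F.

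Among 28 immune genes of the MHC class II and III region, 11 were open in all 8 libraries and 11 in none, TNF and LTA among the latter, and no gene of the 16 open in WT closed in a mutant (all genes 6.63%, 2.08% and 1.44%). The median log2 difference was -0.15 in Y641F, -0.08 in A677G and -0.08 for H689A/F667I, and 1 of the 11 was positive in Y641F. Over all 617 chromosome 6 genes open in all 8 libraries it was -0.08, -0.03 and -0.02. LTB had 4.95 and 4.78 in WT and 2.95 and 4.65 in Y641F, and HLA-DQB1 had 5.43 and 6.74 in WT and 5.26 and 5.12 in Y641F. Some genes of this list share a promoter region (PSMB9 with PSMB8 or TAP1) or have near-identical copies (C4A and C4B, HSPA1A and HSPA1B), and how reads with several matches were treated was not given in the sources used here, so their values are uncertain.

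Of 28 cell cycle and growth genes, 25 were open in all 8 libraries and none of the 26 open in WT closed in a mutant (all genes 6.63%, 2.08% and 1.44%). SGK1, a kinase gene, had 5.67 and 4.36 in WT and 3.38 and 3.82 in Y641F, SASH1 had 4.33 and 4.22 in WT and 3.43 and 3.62 in Y641F, and VEGFA, an angiogenic factor gene, had 2.54 and 2.75 in WT and 3.03 and 3.13 in Y641F. SGK1 lay below both WT libraries in Y641F. In every mutant library SASH1 lay below and VEGFA above both WT libraries. The list's median log2 difference was -0.04 in Y641F, beside -0.08 for all 617 chromosome 6 genes open in all 8 libraries.

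Among neuronal genes, FUT9, a fucosyltransferase gene, was open in WT and closed in Y641F and in A677G. RIMS1, a gene of the presynaptic active zone, had 5.81 and 6.70 in WT, 3.64 and 4.75 in Y641F, 4.17 and 5.72 in A677G and 5.71 and 4.73 for H689A/F667I. EPHA7, an ephrin receptor gene, lay above both WT libraries in all 6 mutant libraries (3.14 and 2.98 in WT, 3.58 and 3.49 in Y641F). Over the 17 genes of the neuronal list open in all 8 libraries, the median log2 difference was -0.12 in Y641F and 3 were positive. All 617 such chromosome 6 genes had a median of -0.08. No list was tested.

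Of the 108 targets that the study lists as shared by its GOF lines, 16 lie on chromosome 6 and all 16 promoters were open in all 8 libraries. Since the study drew this list in part from the same libraries, it gives no independent evidence. The median log2 difference was -0.10 in Y641F, -0.08 in A677G and -0.09 for H689A/F667I. Over all 617 chromosome 6 genes open in all 8 libraries it was -0.08, -0.03 and -0.02. RNF144B had 6.02 and 6.28 in WT and 4.63 and 4.81 in Y641F. VGLL2 had 4.36 and 4.46 in WT and 3.37 and 3.50 in Y641F, and was below both WT libraries in A677G and H689A/F667I too. ADGRG6 overlapped WT in Y641F (5.10 and 4.22 against 4.72 and 6.01).

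**Figure D5:**
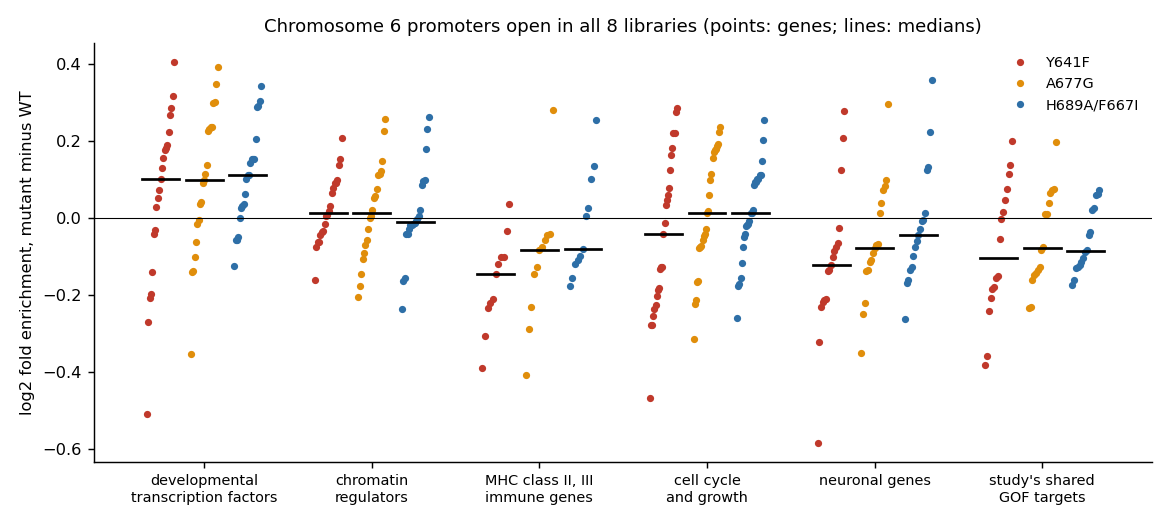
Difference in log2 promoter fold between each mutant and WT for the chromosome 6 genes of 6 lists whose promoter was open in all 8 libraries (points are genes, lines are medians). The developmental transcription factors have a median of 0.10 in Y641F and the MHC class II and III genes of -0.15, beside -0.08 over all 617 such genes of the chromosome.

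Base composition followed the bins unevenly. Across the 35 bins, the log2 ratio of peak share to WT had a Pearson correlation with GC content of 0.16 in Y641F, 0.68 in A677G and 0.40 for H689A/F667I (Spearman 0.13, 0.63 and 0.31). Across the 23 bins of 6q it was 0.42, 0.70 and 0.47 (Spearman 0.39, 0.68 and 0.29). Bins share libraries and neighbours share domains, so these are descriptions. The 15 bins from 85 to 160 Mb had a median GC of 38.8%, close to the 40.4% of all 578 bins.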

How the data were processed

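ATAC-seq peaks were analysed in 8 libraries, 2 for each of 4 HEK293T lines. Groups and replicate numbers came from the sample titles, and the study's methods call the replicates independent and biological. Per the methods and the submitters' processing notes, the authors trimmed reads (Trim Galore 0.6.5), aligned them to GRCh38 (BWA 0.7.17), removed duplicates and called peaks in each library (MACS2 2.2.7.1). The deposited broad peak lists hold, for each peak, the authors' fold enrichment, a ratio to local background, a −log10 p, a −log10 q and a score, the last not used here. Read shifting, mitochondrial reads and depth were not given in the sources used here. Read counts were not analysed here, so precision rests on the number of peaks and libraries.

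Peaks on chromosomes 1 to 22 and X that shared at least 1 bp were merged. The arms were split at 60 Mb, in a span without peaks. Promoters lay within 1 kb of a protein-coding start site (GENCODE 44). Regions with a peak in each WT library and none in either mutant library were called lost, and the reverse gained. Expected loss came from other chromosomes in 10 strata of WT width times −log10 p. Bins with at least 20 WT peaks were compared. Arm share, promoter share and median fold were compared by two-sided exact permutation tests over libraries, adjusted by Benjamini-Hochberg over 12 tests. Named bin promoters were the 4 with the highest Y641F fold in each of the 3 bins with the largest and the 2 with the smallest Y641F difference from WT, and named gained regions and lost promoters (8 in Y641F, 4 in each other mutant) had the highest fold where they were open. The members, lists and tests were chosen with earlier results of these data known. Alternatives were a stricter −log10 q (5 or more), equal peak numbers (the top 26350 of each library by −log10 p), inclusion of the 25 to 29 Mb interval, a 50% cover, merging of peaks under 1 kb apart, strata of WT fold, 10 Mb bins, a replicate block and leaving out each library. Python 3.11.15, numpy 2.4.6, scipy 1.17.1, pandas 2.3.3 and matplotlib 3.10.9 were used. The counts of closed promoters in the neuronal gene list are not reported here.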

Additional observations from a re-analysis of the deposited data

Results flagged for a closer look

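The share of all peaks on 6q lay above both WT libraries in both Y641F libraries and below both in A677G and in H689A/F667I. The difference was 0.679 percentage points between Y641F and A677G and 0.569 points between Y641F and H689A/F667I. Over the whole chromosome outside 25 to 29 Mb, the same opposite directions gave 0.712 points between Y641F and A677G and 0.661 points between Y641F and H689A/F667I. With the interval included, Y641F and A677G again lay on opposite sides of WT and differed by 0.869 points. With equal peak numbers all 3 mutants lay above WT on 6q on average. These differences were not tested. In the 4 GOF libraries, Y641F replicate 2 had a 6p share of all peaks (2.64%) far from the other 3 (2.57% to 2.58%), with a gap of 0.907 of the whole range. Of 12 such groups of 4 libraries examined, about 1 in 20 would be singled out by chance.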

How the results depend on the processing

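The excess of Y641F on 6q kept its direction under every alternative run, from 0.322 to 0.627 points with each library left out. With equal peak numbers in all libraries, the Y641F difference from WT was 0.683 points on 6q, -0.00569 on 6p and 0.677 for the chromosome. For A677G the chromosome and 6q came to 0.0323 and 0.00380 points, and for H689A/F667I to 0.0323 and 0.0436, so their deficits turned. The 6p share of chromosome 6 peaks turned to -0.391 points in H689A/F667I, and the promoter share to -1.82 in Y641F, -0.150 in H689A/F667I and -0.269 for GOF against the others. Lost regions numbered 156 in Y641F, 117 in A677G and 84 for H689A/F667I, and gained ones 124, 80 and 75, with observed over expected loss of 0.996 in Y641F and 1.30 in A677G.

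At a −log10 q of at least 5, chromosome shares differed from WT by -0.0365 points in A677G and 0.0253 in H689A/F667I. On 6p the differences were 0.146 in Y641F, 0.104 in A677G and 0.0277 for H689A/F667I, and on 6q -0.140 in A677G and -0.00232 in H689A/F667I. The 6p share of chromosome 6 peaks for GOF against the others was 0.222. The median fold differed by -0.195 in Y641F, 0.00309 in A677G, 0.00327 in H689A/F667I and -0.0975 for GOF against the others (exact permutation p = 0.314). Lost regions numbered 469, 327 and 242 in Y641F, A677G and H689A/F667I, and gained ones 1, 5 and 8. The share of 6q bins above WT in Y641F was 42.1% of 19 (all bins 34.0%), beside 45% of 20 (28.3%) with equal peak numbers and 75% with 10 Mb bins. The first 2 settings were chosen for the bins after seeing the data. With each library left out it was 65.2% to 87.0%.

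Including 25 to 29 Mb gave chromosome differences of 0.765, -0.103 and -0.0503 points and 6p differences of 0.291, 0.101 and 0.0438 in Y641F, A677G and H689A/F667I, and 0.404 for the 6p share in GOF against the others. A 50% cover gave 0.965 for observed over expected loss in H689A/F667I. Merging peaks under 1 kb apart or using strata of WT fold changed no direction. The causes were not tested.

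With fewer libraries to meet the call rules, leaving out 1 moved lost regions to 996 to 1626 in Y641F, 591 to 1142 in A677G and 288 to 775 in H689A/F667I, the counts without the replicate 2 library of a GOF line or of H689A/F667I being the highest and that without WT replicate 1 the lowest for H689A/F667I. Lost regions in H689A/F667I numbered 743 without its replicate 1. Gained regions came to 34 to 71 in Y641F, 27 to 87 in A677G and 43 to 103 for H689A/F667I, the highest being those without Y641F replicate 1, A677G replicate 1 and WT replicate 1. Without WT replicate 1 they were 53, 60 and 103, and without WT replicate 2 53, 58 and 98. Without A677G replicate 2 they were 54 in A677G, and without H689A/F667I replicates 1 and 2 83 and 74 in that line. Of the 8 gained regions named for Y641F, 2 were left without either of its libraries and 5 with a 50% cover. Observed over expected loss in H689A/F667I was 1.02 to 1.12. The 6p share in GOF against the others ran from -1.09 to 0.567 points, turning without Y641F replicate 1.

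Replicate numbers did not pair the libraries. Deviations of equal numbers correlated from -0.0706 to 0.0393 over 6 pairs of lines. With the replicate block, promoter share in GOF against the others (7.92 points) had an exact permutation p of 0.0556 and median fold (-0.259) also 0.0556. No adjusted p of the 12 tests passed 0.05 under any setting.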
